A study of Arabidopsis thaliana with 8 samples.

Results

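RAB18 (AT5G66400), KIN1 (AT5G15960) and KIN2 (AT5G15970, also called COR6.6) encode small hydrophilic proteins of the Arabidopsis cold and dehydration response. They were taken by locus identifier as 3 of the 3691 genes listed in each deposited table. Abscisic acid (ABA) is a plant hormone whose level climbs when tissue loses water. It binds receptors of the PYR/PYL family, which then hold back type 2C protein phosphatases, so that SnRK2 kinases can activate transcription factors acting on ABA-responsive promoter elements. Cold and dehydration also act through CBF and DREB factors on a separate promoter element. RAB18 is a dehydrin, a disordered protein that protects other molecules in drying cells, and its transcript is widely used as a marker of ABA action, in guard cells among other places. KIN1 and KIN2 lie next to each other in the genome, and their transcripts are classical markers of cold, ABA and dehydration.

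The study exposed wild-type (WT) Arabidopsis thaliana, ecotype Col-0, to 2,5-dimethylpyrazine (2,5-D), a volatile pyrazine, and sequenced RNA of roots and shoots. The 4 groups were roots with 100 µM 2,5-D, roots with water, shoots with 100 µM 2,5-D and shoots with water, each of 2 libraries. Both agents were put on a paper disc in a divided plate, and the labels give both a treatment of 24 hours and a co-cultivation of 14 days, so the length of contact is not settled. No label says that the libraries of a group came from separately grown plants, and p-values then measure the spread of libraries that may be technical repeats only. The values are a normalized expression with no unit in the headers. They behaved as values scaled by transcript length and depth, and levels of different genes are compared below only on that reading.

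The sequences of KIN1 and KIN2 are shown because their likeness bears on how far reads can be told apart. In RefSeq (assembly TAIR10.1) both genes lie on the plus strand of chromosome 5, with 0 annotated genes and 892 bases between them, and RAB18 lies on the minus strand of the same chromosome. The coding sequences of KIN1 and KIN2 have 201 bases each, and capitals mark the 10 bases that differ.
KIN1: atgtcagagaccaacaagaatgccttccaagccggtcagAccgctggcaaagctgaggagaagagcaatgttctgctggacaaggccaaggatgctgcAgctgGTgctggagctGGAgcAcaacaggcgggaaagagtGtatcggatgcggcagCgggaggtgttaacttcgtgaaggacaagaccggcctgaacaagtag
KIN2: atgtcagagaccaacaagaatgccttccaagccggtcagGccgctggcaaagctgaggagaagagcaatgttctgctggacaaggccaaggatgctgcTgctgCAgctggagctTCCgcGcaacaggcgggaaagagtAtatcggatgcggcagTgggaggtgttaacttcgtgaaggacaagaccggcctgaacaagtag
The 66 residues of the encoded proteins differ at 5 positions. The longest stretch shared without a mismatch was 58 bases, and it was 58 bases also over the whole transcripts. Of the 780 windows of 50 bases in the KIN1 transcript, 10 (1.28%) were found unbroken in KIN2, and of the 701 windows in the KIN2 transcript 10 (1.43%) were found in KIN1. No window of 100 bases was shared. The untranslated ends were not aligned, so the bases that differ there were not counted. No source used here says how the authors' counting handled reads from the shared stretches, so the split between KIN1 and KIN2 is uncertain and their sum is given beside them.

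Promoter stretches are shown because all 3 transcripts had higher values with 2,5-D than with water in both organs, as did 31.1% of listed genes. In shoot none of these differences passed the test given below. In the 250 bases before each start codon (a window that includes the untranslated leader), ACGTG, the core of the ABA-responsive element, and CCGAC, the core of the element bound by CBF and DREB factors, were searched on both strands. Capitals mark ACGTG or CCGAC in either orientation, written 5′ to 3′ on the coding strand.
RAB18: aaCACGTatggcgaaacaccacgCCGACat
KIN1, distal: aaaacgaCACGTGaagtctt
KIN1, middle: atagctaCCGACataaggc
KIN1, proximal: tgtaatcCACGTGgttttag
KIN2, distal: aaaacgaCACGTGatgtctt
KIN2, middle: aaagctaCCGACataaggc
KIN2, proximal: atcCACGTGgtttcagattaCACGTGgca
RAB18 held 1 match to ACGTG, KIN1 held 4 and KIN2 held 6. Each palindrome CACGTG counts once on each strand. Among 27443 windows of the same length, 20.0% held at least 1 match, 7.12% at least 2 and 2.12% at least 3. Each of the 3 genes held 1 match to CCGAC, which 13.1% of windows held. Among the listed genes the shares were 24.3% for ACGTG and 12.5% for CCGAC. These matches describe the letters and were not tested as binding sites.

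RAB18 was nearly absent from roots with water and present at a low level in roots with 2,5-D. Its values were 3.24 and 2.75 in roots with 2,5-D, against 0.22 and 0.08 in roots with water. Both 2,5-D libraries stood above both water libraries, and the means were 2.995 ± 0.35 with 2,5-D and 0.15 ± 0.099 with water (SD, n = 2 each), a ratio of 20.0. The log2 change, on the log2(value + 1) scale, was 1.80 (SE 0.19, 95% interval 1.37 to 2.23, adjusted p = 0.000136 in limma). Adding 1 before taking the logarithm understates the change of a gene this low: with 0.1 added, the log2 change was 3.68 (adjusted p = 0.000209). RAB18 passed the filter, a mean of at least 1 over the 4 root libraries, only through its 2,5-D libraries. With a mean of at least 5 required, it could not be tested.

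The small number of reads behind the RAB18 values in water limits the size of that ratio. From the spacing of low values in each library, the RAB18 values in root were estimated to stand for 45 and 37 reads with 2,5-D, against 3 and 1 reads with water. Summed, these are 82 against 4 reads, a ratio of 20.2 after adjustment for estimated depth, with an exact 95% interval of 7.59 to 75.9. In shoot the estimates were 124 and 107 reads with 2,5-D, against 53 and 91 with water, a ratio of 1.82 with an interval of 1.47 to 2.26. These intervals cover counting error only, and the reads are estimates: 76.9% to 82.0% of the low values fell within 0.1 of a whole read on the fitted spacing.

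KIN1 and KIN2, already abundant in roots with water, were more than 2-fold higher in roots with 2,5-D. KIN1 had 618 and 530 in roots with 2,5-D, against 263 and 194 in roots with water. The groups did not overlap, and the means were 574 ± 62.5 with 2,5-D and 228 ± 48.4 with water (SD, n = 2 each), a ratio of 2.51. Its log2 change was 1.34 (SE 0.19, 95% interval 0.91 to 1.76, limma adjusted p = 0.000513). KIN2, the more abundant of the neighbours in every library, had 1266 and 1125 in roots with 2,5-D, against 560 and 508 in roots with water. These groups did not overlap either, and the means were 1196 ± 99.7 with 2,5-D and 534 ± 37.4 with water (SD, n = 2 each), a ratio of 2.24. Its log2 change was 1.16 (SE 0.16, 95% interval 0.81 to 1.51, limma adjusted p = 0.000424). The sum of both genes averaged 1770 ± 162 with 2,5-D and 762 ± 85.8 with water (log2 change 1.22, limma adjusted p = 0.00038). If values are scaled by transcript length, this sum is not free of how reads were split between the genes.

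KIN1 and KIN2 thus rose in root at an adjusted p under 0.05. There 39% of the 3487 genes tested were called higher and 22.5% lower (61.5% in all). RAB18 was also called, but it passed the filter only through its 2,5-D libraries, so its call adds no support. The median log2 change of all genes tested in root was 0.26. A larger rise was found for 2.24% of genes in the case of RAB18, 6.39% for KIN1 and 9.15% for KIN2. The rule by which the authors listed genes is not stated, and it appears to rest on these same libraries: in 99.9% of listed genes both 2,5-D libraries lay on one side of both water libraries in at least 1 organ. Presence in the tables and separation of the groups are therefore not independent evidence of a response. In root the groups did not overlap in 82.8% of listed genes, and in 51.3% the 2,5-D libraries were the higher ones. No exact permutation test is given, since 2 libraries a group allow no two-sided p below 0.333.

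**Figure D1:**
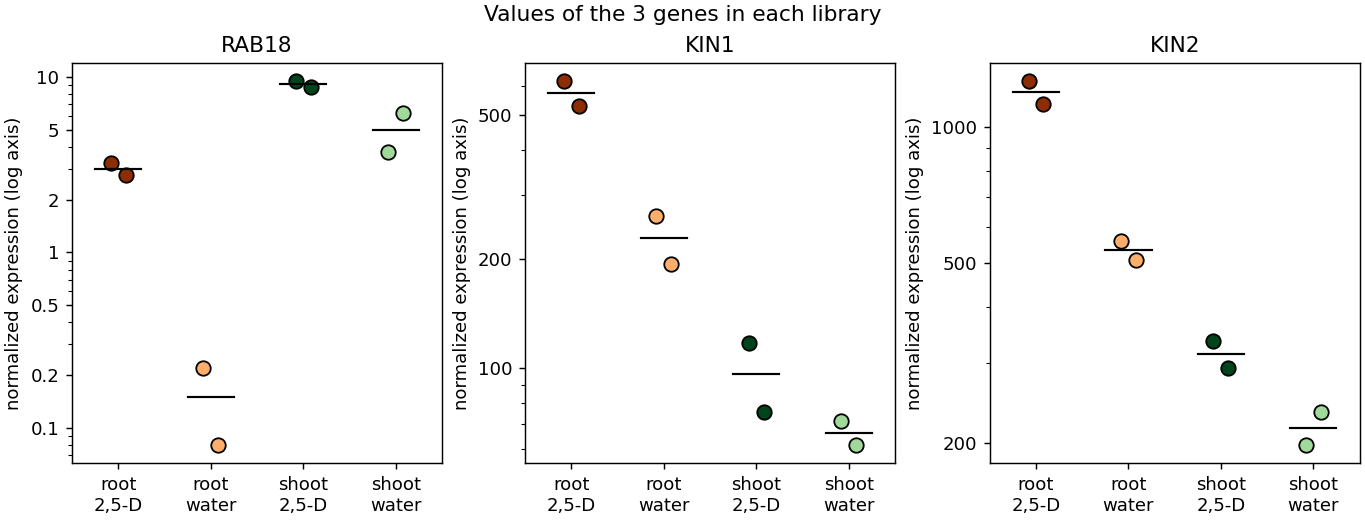
Normalized expression of RAB18, KIN1 and KIN2 (y, log axis, a separate scale for each gene) in the 8 libraries, by organ and treatment. Points are libraries and lines are group means. For each gene both 2,5-D libraries lie above both water libraries of the same organ, with the widest gap for RAB18 in root (2.75 and 3.24 against 0.08 and 0.22). The same order in both organs holds for 31.1% of listed genes.

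In shoots the same 3 genes were higher with 2,5-D by smaller amounts, and none passed the test. RAB18 had 9.46 and 8.76 in shoots with 2,5-D, against 3.74 and 6.22 in shoots with water. The water libraries lay further apart than the 2,5-D libraries, and the means were 9.11 ± 0.50 with 2,5-D and 4.98 ± 1.75 with water (SD, n = 2 each), a ratio of 1.83. The log2 change was 0.79 (SE 0.25, 95% interval 0.081 to 1.496, limma adjusted p = 0.0834). KIN1 had 117 and 75.9 in shoots with 2,5-D, against 71.5 and 61.4 in shoots with water, so that the lower 2,5-D library was close to the higher water library. The means were 96.6 ± 29.3 with 2,5-D and 66.4 ± 7.11 with water (SD, n = 2 each), and the log2 change was 0.50 (SE 0.28, 95% interval -0.29 to 1.301, limma adjusted p = 0.222). For KIN1 the difference was about the size of the spread between the 2,5-D libraries. KIN2 had 336 and 293 in shoots with 2,5-D, against 198 and 233 in shoots with water. Its means were 315 ± 30.2 with 2,5-D and 215 ± 25.4 with water (SD, n = 2 each), a log2 change of 0.55 (SE 0.18, 95% interval 0.033 to 1.06, limma adjusted p = 0.0910). KIN1 and KIN2 summed averaged 411 ± 59.5 with 2,5-D and 282 ± 18.2 with water (log2 change 0.54, limma adjusted p = 0.0930).

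No gene of the shoot table passed limma (0% of 3376 tested), while 1664 had an unadjusted p under 0.05. The smallest limma adjusted p was 0.0524, just above the threshold, and many genes shared it. No other tool was run. The median log2 change of all genes tested in shoot was 0.37, and 25.7% of genes had a larger rise than RAB18, 44.5% a larger one than KIN1 and 42.8% a larger one than KIN2. In shoot the groups did not overlap in 75.7% of listed genes, and in 49.7% the 2,5-D libraries were the higher ones, as they were in both organs in 31.1%. The shoot calls changed with the library left out, the samples in the fit and, in number, the scaling. In 1 fit of all 8 libraries 1689 shoot genes passed, with RAB18 at an adjusted p of 0.0257 and KIN2 at 0.036, and with equal medians 546 passed, none of them RAB18, KIN1 or KIN2. Without shoot water replicate 1 the log2 changes were 0.48 for RAB18, 0.61 for KIN1 and 0.43 for KIN2. Without shoot water replicate 2 they were 1.09, 0.40 and 0.67. In these fits the lone water library is assumed to vary like the 2,5-D pair, so no p-value is given for them. The water pair differed over 2-fold in 553 listed genes, against 14 for the 2,5-D pair. After each library was scaled to the same median, which lowered the median change of all shoot genes by 0.39, the log2 changes were 0.43 for RAB18, 0.09 for KIN1 and 0.13 for KIN2.

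The change in root exceeded that in shoot for each gene, and for RAB18 the difference passed the test. The root change minus the shoot change was 1.01 for RAB18 (log2 scale, SE 0.30, 95% interval 0.29 to 1.73, limma adjusted p = 0.0439). It was 0.83 for KIN1 (SE 0.37, 95% interval -0.062 to 1.73, adjusted p = 0.129) and 0.62 for KIN2 (SE 0.23, 95% interval 0.052 to 1.18, adjusted p = 0.0850). Of 3602 genes tested for this difference 33% were called, 10.4% with the higher change in root and 22.5% with the lower, and the median over all of them was -0.16. With the libraries of each organ scaled to a common median, the calls split as 448 higher and 233 lower. Without that scaling they were 375 higher and 812 lower. The RAB18 call was lost when any 1 of 6 of the 8 libraries was left out. Fewer of all genes were called in each of those 6 fits. The RAB18 call was kept without either shoot water library, where more of all genes were called. Its difference was then 1.31 without replicate 1 and 0.70 without replicate 2. These fits leave 1 library in a group, so no p-value is given for them. With 1 library left out, the difference ranged over 0.52 to 1.14 for KIN1 and 0.50 to 0.73 for KIN2. With equal medians KIN2 passed (0.92, limma adjusted p = 0.0408).

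**Figure D2:**
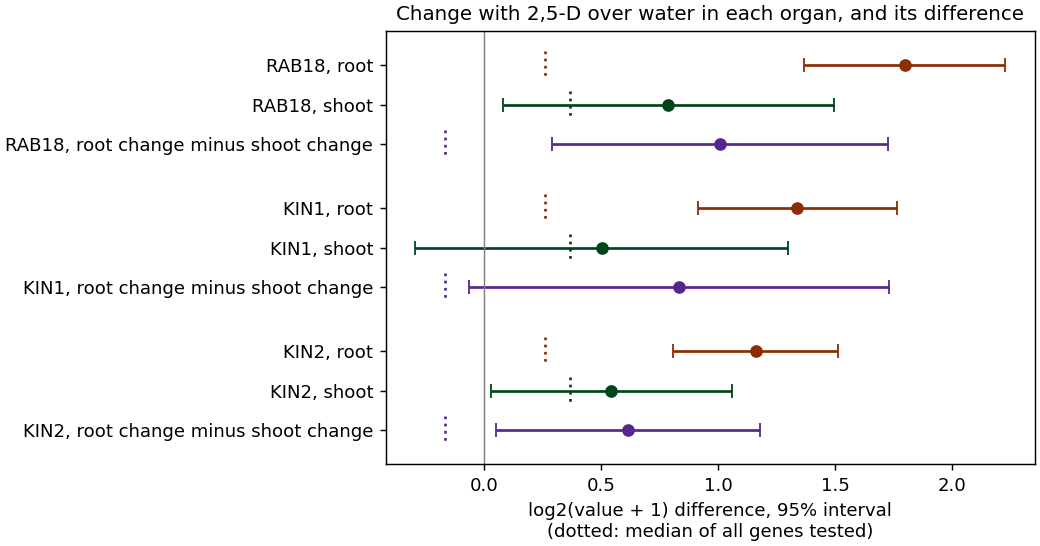
Difference between 2,5-D and water for each gene in root and in shoot, and the root change minus the shoot change (x, log2(value + 1) scale). Points are limma estimates, bars are 95% intervals and dotted lines are medians of all genes tested. The root intervals lie above 0 and above the median of all genes, while the shoot interval of KIN1 spans 0 and all shoot intervals span the median of 0.37.

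The genes had opposite balances between the organs. RAB18 was lower in root: its mean was 0.329 of that in shoot among 2,5-D libraries and 0.0301 of it among water libraries. The order of its group means was shoot with 2,5-D, shoot with water, root with 2,5-D and root with water. The gap between shoot with water (4.98 ± 1.75, SD) and root with 2,5-D (2.995 ± 0.35, SD) was close to the spread of the shoot water pair. KIN1 was 5.94-fold higher in root than in shoot among 2,5-D libraries and 3.44-fold higher among water libraries. For KIN2 these ratios were 3.802 and 2.478. The order for both KIN genes was root with 2,5-D, root with water, shoot with 2,5-D and shoot with water. Among neighbours in that order, the shoot groups of KIN1 did not differ beyond their spread. The organs were deposited in separate tables that may have been normalized separately, so these levels are a description with no test.

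Within a library, KIN2 stood near the top of the listed genes. RAB18 stood near the bottom in roots and in the lower part in shoots. KIN2 was above 99.3% and 99.2% of listed genes in roots with 2,5-D, against 97.5% and 97.5% in roots with water. KIN1 was above 97.4% and 96.8% with 2,5-D, against 93.4% and 91.8% with water. RAB18 was above 13.9% and 12.1% of listed genes in roots with 2,5-D, against 3.01% and 1.73% in roots with water. In shoots RAB18 was above 33.3% and 32.5% with 2,5-D, against 22.2% and 30.4% with water. There KIN2 was above 94.72% and 93.9% with 2,5-D, against 92.12% and 91.98% with water. KIN1 was above 83.47% and 78.43% in shoots with 2,5-D, against 82.25% and 76.65% in shoots with water.

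The share of KIN1 in the summed values of KIN1 and KIN2 was higher in root than in shoot. It was 32.8% and 32.0% in roots with 2,5-D, against 31.9% and 27.7% in roots with water. It was 25.9% and 20.6% in shoots with 2,5-D, against 26.6% and 20.8% in shoots with water. The lowest root library lay above the highest shoot library, while within each organ the 2,5-D and water libraries overlapped or nearly met. The share depends in part on how reads from the shared coding stretches were split, and no depth-based interval is given.

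**Figure D3:**
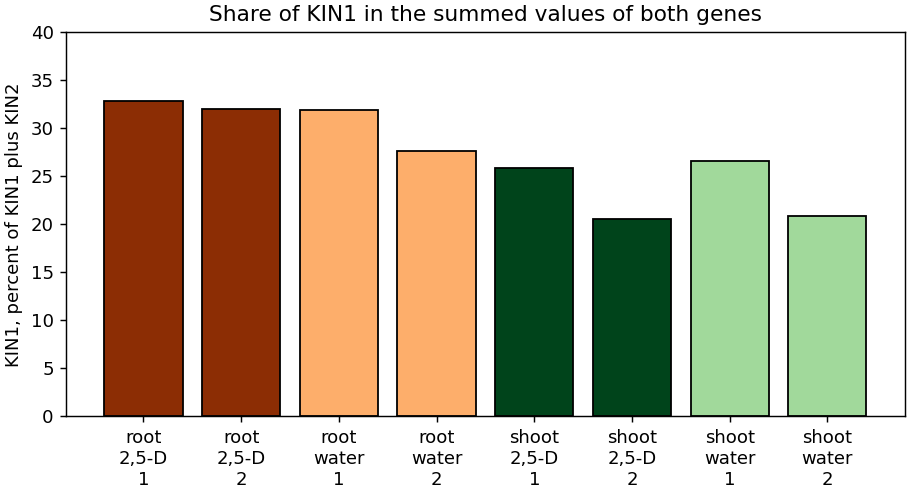
KIN1 as a percent of the summed normalized expression of KIN1 and KIN2 in each library (y, percent, starting at 0). Bars are single libraries, with no error. All 4 root libraries (27.7% to 32.8%) stand above all 4 shoot libraries (20.6% to 26.6%).

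Across the 8 libraries the KIN genes followed each other and RAB18 did not follow them. On log2(value + 1), Pearson's r was 0.987 between KIN1 and KIN2, -0.458 between RAB18 and KIN1 and -0.384 between RAB18 and KIN2. These are descriptions over libraries of both organs and treatments, so that a shared organ difference alone moves r. Among the 3212 other genes compared, those most like RAB18 were AT5G59400 (r = 0.991), the MYB transcription factor gene MYB62 (AT1G68320, r = 0.990) and AT5G44565 (r = 0.983). MYB62 had 2.47 and 1.92 in roots with 2,5-D, against 0.22 and 0.18 in roots with water, and 7.84 and 8.45 in shoots with 2,5-D, against 4.22 and 5.59 in shoots with water. Most like KIN1 were MAN1 (AT1G02310, r = 0.995), the gene of a mannan-cutting cell wall enzyme, AT2G45100 (r = 0.993) and RGLG3 (AT5G63970, r = 0.992), the gene of a ubiquitin ligase. Most like KIN2 were AT1G70790 (r = 0.995), MAPKKK18 (AT1G05100, r = 0.994), the gene of a kinase in ABA signalling, and ABCB9 (AT4G18050, r = 0.994), the gene of a membrane transporter. MAPKKK18 had 96.5 and 93.5 in roots with 2,5-D, against 23.5 and 27.1 in roots with water, and 9.83 and 7.63 in shoots with 2,5-D, against 2.37 and 4.40 in shoots with water.

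Other genes of the same pathways were read from 4 lists with 86 genes, of which 34 were in the tables and all 34 were tested in root. There 24 rose, 4 fell and 6 did not pass, with a median log2 change of 0.55, where 39% of all genes tested in root rose and 22.5% fell, with a median of 0.26. The number that rose was 8 without root 2,5-D replicate 1, 8 without root 2,5-D replicate 2, 13 with equal medians and 5 in 1 fit of all 8 libraries. The number that fell was 1 without either of these 2,5-D libraries.

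Among response proteins, which act downstream with RAB18 and the KIN genes, 12 of 14 rose in root (39% of all genes tested did), 0 fell and 2 did not pass, with a median of 0.60. The 12 became 7 with equal medians, where 1042 of 3488 genes tested rose, and 4 in 1 fit of all 8 libraries, where 720 of 3602 did. Fewer than 12 also rose without either root 2,5-D library, where fewer of all genes tested rose. LEA4-5 (AT5G06760), a late embryogenesis abundant protein of drying tissue, had 38.5 and 35.0 in roots with 2,5-D, against 10.6 and 6.62 in roots with water (log2 change 2.00, limma adjusted p = 0.000116). Its change was the largest of the list. AT3G02480, a gene of the same family, rose by 1.21 (adjusted p = 0.000543), ERD7, a dehydration-induced gene, by 1.17 (0.00118), COR27, a cold and clock gene, by 1.03 (0.00079) and its relative COR28 by 0.82 (0.00192). ERD4 (0.39, adjusted p = 0.102) and COR15A (0.38, adjusted p = 0.0851), a chloroplast protein of cold-treated leaves, did not pass.

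Of 7 cold and dehydration transcription factor genes, 5 rose in root, 1 fell and 1 did not pass, with a median of 0.57, beside 39% of all genes tested higher and 22.5% lower. With equal medians 2 rose and 1 fell, beside 1042 and 892 of 3488 genes tested. Without the filter on low values 3 rose and 1 fell, beside 1225 and 758 of 3691. In 1 fit of all 8 libraries 1 rose and 0 fell, beside 720 and 695 of 3602. Without either root 2,5-D library fewer rose and the fall was not called, and fewer of all genes tested were called. ZAT12, a zinc finger factor of many stresses, had 1394 and 1229 in roots with 2,5-D, against 650 and 566 in roots with water (log2 change 1.11, limma adjusted p = 0.000563). RD26, a NAC factor of dehydration and ABA, rose by 0.84 (0.00191), ZAT10 by 0.57 (0.0159) and CBF4 by 0.57 (0.0258). CBF2, a cold-induced factor that acts on the CCGAC element, was the one that fell: it had 79.8 and 80.7 in roots with 2,5-D, against 130 and 133 in roots with water (log2 change -0.71, adjusted p = 0.00369). That call was lost without root 2,5-D replicate 1 (adjusted p = 0.08), without root 2,5-D replicate 2 (0.0715) and in 1 fit of all 8 libraries (0.0985). CAMTA3, which binds CBF promoters, did not pass (0.18, adjusted p = 0.437).

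Of 6 genes of ABA perception and signalling, 2 rose, 2 fell and 2 did not pass, with a median of 0.025, shares near those of all genes tested in root (39% higher and 22.5% lower). None rose with equal medians, where 1042 of 3488 genes tested did, or in 1 fit of all 8 libraries, where 720 of 3602 did. The rises were also not called without either root 2,5-D library, where fewer of all genes tested rose. The receptor genes PYL1 (log2 change -1.17, limma adjusted p = 0.000348) and PYR1 (-0.46, adjusted p = 0.0335) fell. PYL1 had 14.1 and 13.2 in roots with 2,5-D, against 31.3 and 32.5 in roots with water. The receptor gene PYL5 rose by 0.67 (adjusted p = 0.0198) and OST1, an SnRK2 kinase gene, by 0.41 (adjusted p = 0.0393). PYL8 (-0.23, adjusted p = 0.358) and SNRK2.3 (0.28, adjusted p = 0.141) did not pass.

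Of 7 genes of ABA synthesis, turnover and transport, 5 rose, 1 fell and 1 did not pass, with a median of 0.61, beside 39% of all genes tested higher and 22.5% lower. The number that rose was 2 with a mean of at least 5 required, where 1219 of 3053 genes tested rose. It was 0 in 1 fit of all 8 libraries, where 720 of 3602 did. Without either root 2,5-D library fewer rose and the one that fell did not pass, and fewer of all genes tested were called. NCED genes encode enzymes that cut carotenoids in ABA synthesis, and NCED2 (0.86, limma adjusted p = 0.00815), NCED9 (0.86, adjusted p = 0.00322) and NCED3 (0.51, adjusted p = 0.0472) rose. NCED9 had only 1.84 and 1.78 in roots with 2,5-D, against 0.53 and 0.57 in roots with water, and NCED2 had 1.85 and 2.00, against 0.95 and 0.33. Like RAB18, both passed the filter only through their 2,5-D libraries, so their calls add no support to the count. NCED3 missed the threshold with 0.1 added (adjusted p = 0.0511), with no filter (0.0647), with equal medians (0.103), in 1 fit of all 8 libraries (0.164), and without either root 2,5-D library or root water replicate 2 (0.0516 to 0.351). BGLU18, which frees ABA from its glucose ester, rose by 0.73 (0.00597), and CYP707A1, which breaks ABA down, rose by 0.61 (0.00877). The synthesis gene AAO3 did not pass (-0.01, adjusted p = 0.959). The one that fell was ABCG25 (-0.50, adjusted p = 0.0186), an ABA exporter gene, named after its value was seen.

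In shoot 31 of the 34 genes were tested and 0 passed, at adjusted p-values of 0.0524 to 0.980. Their changes were positive in 24, with a median of 0.61 against 0.37 for all genes tested in shoot. In the all-organ fit of the root change minus the shoot change, 2 of 32 list genes were higher, AT3G02480 (1.16, limma adjusted p = 0.0186) and COR27 (1.02, adjusted p = 0.0401), and 2 were lower, PYL1 (-0.81, adjusted p = 0.0327) and ABCG25 (-1.17, adjusted p = 0.0182). Both counts are smaller shares than those over all 3602 genes tested (10.4% higher and 22.5% lower). AT3G02480 entered this fit only through root. In shoot it had 0.44 and 0.23 with 2,5-D, against 0.2 and 0.38 with water, too low to be tested there. Its difference of 1.16 is close to its root change of 1.21, so it is no measure of a shoot response. COR27, like RAB18, was higher in shoot than in root: it had 12.3 and 11.1 in roots with 2,5-D, against 5.47 and 4.95 in roots with water, and 28.0 and 35.0 in shoots with 2,5-D, against 37.5 and 25.8 in shoots with water.

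**Figure D4:**
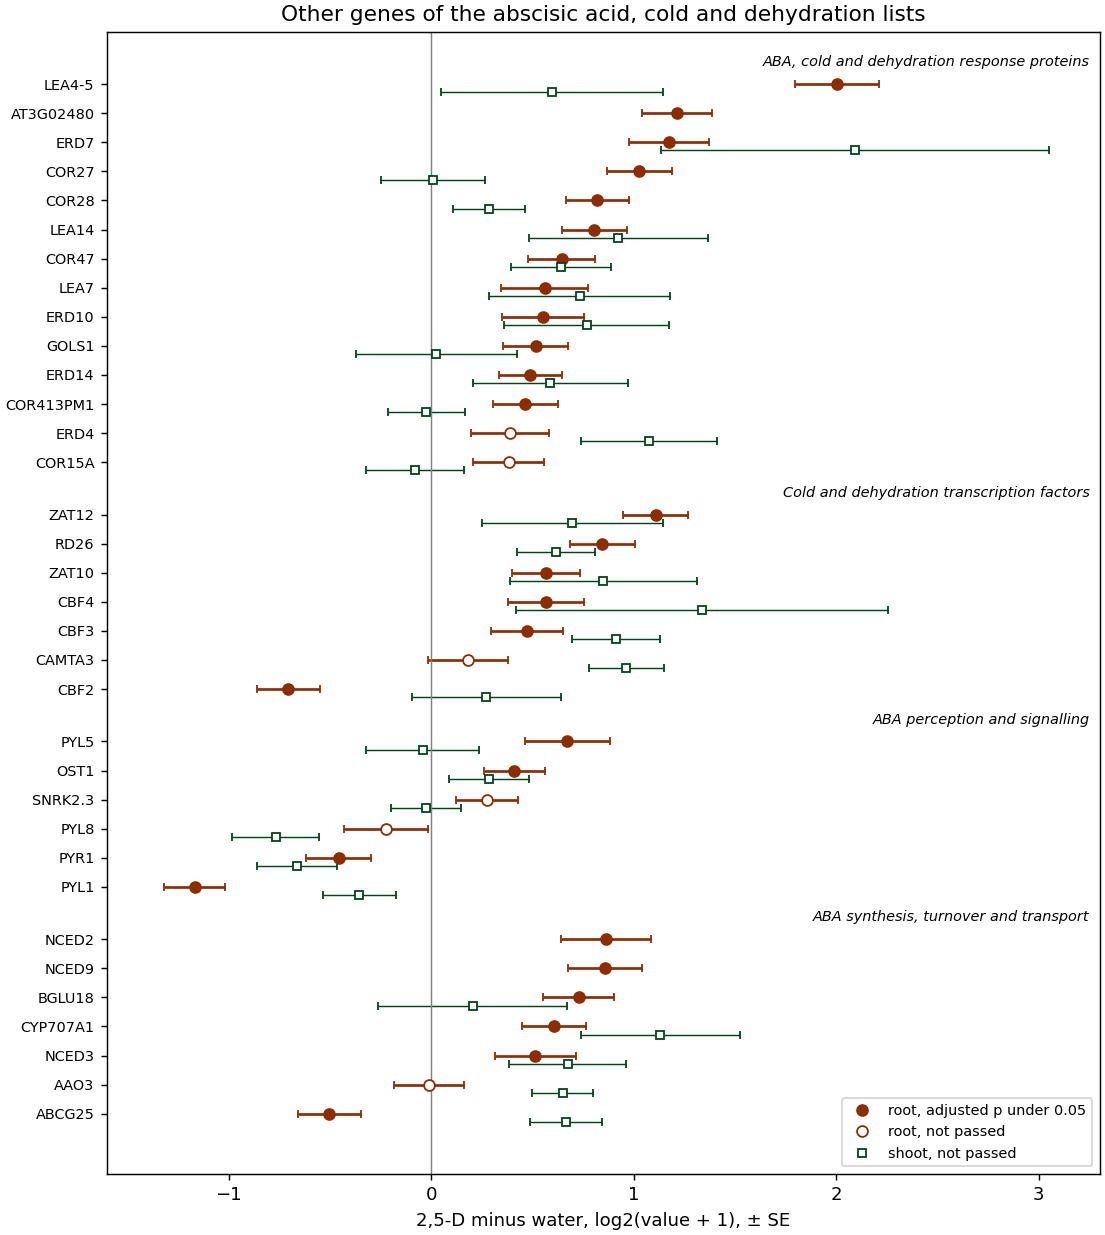
Difference between 2,5-D and water (x, log2(value + 1) scale, bars ± SE) for the 34 list genes in the tables, by list. Filled circles passed in root, open circles did not, and squares are shoot, where none passed. Most root values lie right of 0, led by LEA4-5 at 2.00, with PYL1 at -1.17 furthest to the left.

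Markers of the tissues were read beside these results. The 4 leaf photosynthesis genes in the tables, of 8 listed, summed to 37.9 to 38.5 in roots with 2,5-D and 34.4 to 47.4 in roots with water. In shoots they summed to 4504 to 5874 with 2,5-D and 7807 to 9815 with water. The labelled organs thus differed in these markers by far more than the treatments did, though 1 of them, CA1, a carbonic anhydrase gene, had 10.46 and 9.71 in roots with 2,5-D, against 2.98 and 1.32 in roots with water. The 3 root endodermis genes in the tables, of 7 root markers listed, summed to 57.8 to 72.9 in roots with 2,5-D, against 121 to 128 in roots with water, while in shoots they stayed at 1.87 to 2.34 with 2,5-D and 2.73 to 3.95 with water. CASP2, a marker of the root endodermal barrier, was listed at 0 in both shoot libraries with 2,5-D. Of 7 seed markers 1 was in the tables, EM1, itself an ABA-responsive gene, at 7.07 and 8.25 in roots with 2,5-D, against 2.87 and 2.77 in roots with water. None of 5 guard cell markers was in the tables. Beside the rise of RAB18 and the KIN genes in root, the endodermis markers were thus lower and EM1 was higher with 2,5-D, and their part in the result was not tested. In whole organs, fewer cells of a type and less RNA per cell cannot be told apart.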

How the data were processed

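RNA of 8 libraries was sequenced. Per the submitters' processing notes, HISAT2 2.0.4 aligned the reads; no source used here gives the genome build, annotation or quantification. The authors deposited a normalized expression signal per gene, 1 table an organ, 3691 genes each, with no unit in the headers; values of listed genes summed to 252870 to 343912 per library, and the reads behind each library are not stated. Both 2,5-D headers for shoots carry replicate 1, so these libraries are numbered by column as names only. All columns were used (0 left out).

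Values were tested with limma 3.58.1 (R 4.3.3, mean-variance trend) on log2(value + 1), keeping genes whose mean reached 1 over the fitted libraries, each organ alone. The root change minus the shoot change was fitted over all 8. Benjamini-Hochberg adjustment ran over all genes tested, with calls at 0.05. The fits were tested on simulated data. The members and lists were chosen with earlier results of these data known. From each list the text names at most 5 genes that pass, by size of change, and at most 3 that do not, by mean level; for likeness, the 3 genes of highest r. Sequences came from RefSeq TAIR10.1 by locus tag. Coordinates are left out, since the authors may have used another build. The labels number the replicates but state no shared source, so no block was used. Deviations of same-numbered root libraries had r = -0.0494 over 3487 genes, which with 2 libraries a group cannot settle pairing. Alternatives were another pseudocount, other filters, equal medians, 1 fit of all libraries, limma without the trend or with robust hyperparameters, a replicate block, KIN1 and KIN2 summed, and leaving out each library.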

Additional observations from a re-analysis of the deposited data

Results flagged for a closer look

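The change of RAB18 differed between the organs by a test of the difference itself: the root change minus the shoot change was 1.01 on the log2(value + 1) scale (limma adjusted p = 0.0439). Of the 3602 genes tested for this difference, 33% were called. RAB18 was higher with 2,5-D in 2 of 2 libraries of each organ, as were 31.1% of listed genes. The call was lost when any 1 of 6 of the 8 libraries was left out. Fewer of all genes were called in each of those fits. With 0.1 added in place of 1, the difference was 2.78 (adjusted p = 0.0275).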

How the results depend on the processing

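KIN1 and KIN2 kept their direction and call in root under every alternative (13 for each, their sum included). RAB18 did so in the 12 in which it was tested, though summing the KIN genes leaves its values as they were. It passed the filter only through its 2,5-D libraries, so its kept call adds no support. With a mean of at least 5 required, RAB18 could not be tested. With 1 fit of all libraries, calls numbered 1415 in root (2143 otherwise) and 1689 in shoot (0 otherwise), list genes 5 higher and 2 lower in root and 7 higher and 2 lower in shoot, and RAB18 (0.79, adjusted p = 0.0257) and KIN2 (0.55, adjusted p = 0.036) passed in shoot. With equal medians, calls numbered 546 in shoot (69 higher, 477 lower) and 681 for the difference between organs (1187 otherwise), 13 list genes rose in root, and the KIN2 difference was 0.92. Higher calls were then 53.9% of those in root, against 63.5%, and 65.8% of those for the difference, against 31.6%. Equal medians shifted the median change by -0.11 in root, -0.39 in shoot and 0.28 for the difference.

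With 1 library left out, calls ranged over 1093 to 2512 in root, 0 to 2480 in shoot and 0 to 1954 for the difference; list genes over 8 to 25 higher and 1 to 5 lower in root, and 0 to 19 higher and 0 to 5 lower in shoot. Shoot changes ranged over 0.48 to 1.09 for RAB18, 0.19 to 0.82 for KIN1 and 0.43 to 0.67 for KIN2, and differences over 0.70 to 1.31, 0.52 to 1.14 and 0.50 to 0.73. Signs turned for AAO3 (-0.16 to 0.14), CAMTA3 (-0.079 to 0.44) and PYL8 (-0.52 to 0.073), none of which had passed with all root libraries. Among alternatives for single named list genes in root, 42 lost and 4 gained a call. The causes were not tested.

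The root fit with a replicate block kept RAB18 (1.80, limma adjusted p = 7.40e-08), KIN1 (1.34, adjusted p = 6.17e-07) and KIN2 (1.16, adjusted p = 1.28e-06). The SE was 0.212 for RAB18, 0.179 for KIN1 and 0.163 for KIN2, against 0.191, 0.189 and 0.157 without the block. The smaller adjusted p-values are therefore not read as stronger evidence. The r of -0.0494 between same-numbered root libraries does not settle whether they were paired. No paired analysis was possible in shoot because both 2,5-D columns carry replicate 1. With 2 libraries a group, unknown depth and RAB18 at an estimated 1 to 3 reads in roots with water, the size of its rise is loosely bounded.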
